A study of Saccharomyces cerevisiae with 24 samples.

Results

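GCN4 and 5 genes of the pathway that controls it were followed through all 23 ribosome profiling libraries of yeast strain BY4741. The genes were chosen by locus tag and are 6 of the 5564 lines of the deposited expression table: GCN4 (YEL009C), GCN2 (YDR283C), GCN1 (YGL195W), GCN20 (YFR009W), YIH1 (YCR059C) and PCL5 (YHR071W). Ribosome profiling reads out the stretches of mRNA that lie inside ribosomes and so survive RNase digestion, and a gene's footprint level is given here in RPKM, its reads scaled to the length of the reading frame and to the size of the library. The footprint level is set by the amount of mRNA and by the ribosomes on each mRNA, and with no mRNA libraries analysed here these cannot be told apart.

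GCN4 is the main activator of genes for amino acid synthesis in budding yeast and is known above all for its control by translation. In starved cells uncharged tRNA activates the kinase GCN2, which phosphorylates the initiation factor eIF2. Scarce active eIF2 lowers initiation on most mRNAs but lets ribosomes pass the short upstream reading frames of the GCN4 mRNA and reach its main reading frame. GCN1 and GCN20 bind the ribosome as a complex and are needed to activate GCN2 there, and YIH1 competes with GCN2 for GCN1 and so inhibits the kinase. PCL5 is a cyclin, itself under GCN4 control, that directs the kinase PHO85 to GCN4 protein and marks it for degradation.

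The libraries came from 8 cultures treated with 0.2 mM hydrogen peroxide for 30 min, 2 cultures shifted to 42 °C for 20 min, 1 culture moved for 20 min to synthetic (SD) medium without amino acids and 1 to the same medium with histidine, methionine and leucine, 1 in complete SD, and 10 unstressed cultures in rich YPD medium, 2 of which were lysed with the initiation inhibitors edeine or aurintricarboxylic acid. Cycloheximide, an inhibitor of elongation, was added to the peroxide and unstressed cultures at none, x1/64, x1/16, x1/4, x1, x8 or x100, where x1 is 100 μg/ml, and the heat shock cultures had none or x1. By the study's methods the lysis buffer also held cycloheximide at 100 μg/ml, so that no drug here means none in the culture medium. Only x100 was replicated, with 2 peroxide and 2 unstressed libraries, and all other conditions had 1 library. The labels give YPD for all samples, so that SD as the base of the starvation cultures is taken from the study's methods, which also list uracil among the supplements. The strain lacks LEU2, MET17 and URA3, listed at 0 in all 23 libraries, and carries a mutant HIS3, whose line ranged from 17.5 to 507 RPKM. It therefore cannot make its own histidine, leucine, methionine or uracil, a limit on full withdrawal as a model of starvation. By the study's methods the medium of full withdrawal held only a nitrogen source and glucose, and so also lacked the other supplements of complete SD. Loss of amino acids and loss of these supplements cannot be told apart in that library.

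Depth, recovered from the steps between low RPKM values, was 1.92 to 27.9 M reads per library with a median of 6.94 M. Primer set 1 was used for 12 libraries and primer set 2 for 11, and the sets are treated as batches. The median gene had between 13.8 and 44.3 RPKM, a shift that falls on every gene, and values centred on each library's median gene are therefore given beside those as deposited where they differ in call. Intervals are 95% intervals from the recovered reads, by the Poisson distribution for a level and exact for a ratio, and cover counting error only.

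Over the 23 libraries GCN4 had by far the widest range, from 17.8 RPKM in heat-shocked cells at x1 to 4065 RPKM in SD without amino acids, a 228-fold span. YIH1 spanned 20.7-fold, PCL5 5.37-fold, GCN2 4.84-fold, GCN1 2.92-fold and GCN20 2.17-fold. In the 21 libraries without the starved cultures GCN4 ranged from 17.8 to 216 RPKM. YIH1 kept its range of 2.01 to 41.7 RPKM there, a wider span than that of GCN4, with its lowest value from 4 reads. The median levels per kilobase over all 23 libraries were 80.5 RPKM for GCN20, 65.0 RPKM for GCN4, 52.4 RPKM for GCN1, 32.9 RPKM for PCL5, 23.5 RPKM for YIH1 and 9.31 RPKM for GCN2. The kinase was thus the lowest of the 6 genes by its median and the ribosome-bound activator GCN20 the highest. In the order of GCN4 levels, 17 of 22 neighbours had overlapping intervals. The 5 gaps lay below 4065, 973, 216 and 103.5 RPKM and above 17.8 RPKM, so that both starvation libraries, the second peroxide library at x100 and the heat shock library at x1 stood apart from their neighbours. For GCN2 and PCL5 all 22 neighbours overlapped.

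Amino acid starvation gave the highest GCN4 levels of the series. GCN4 had 973 RPKM in SD with histidine, methionine and leucine (95% interval 943 to 1003), 4065 RPKM in SD without amino acids (3961 to 4171) and 37.1 RPKM in complete SD (32.8 to 41.9). The ratio over complete SD was 26.2 (23.1 to 29.7) with the 3 amino acids and 109 (96.8 to 124) without any. The library with the 3 amino acids had 0.239 times the level of that without (0.230 to 0.249). On the log2(RPKM + 1) scale GCN4 ranked 27 of 4283 genes by its difference from complete SD with the 3 amino acids and 11 of 4588 without any. With 1 library per condition none of these differences has a replicate check or a test, and the library with the 3 amino acids had primer set 2 where the other 2 had set 1.

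**Figure D1:**
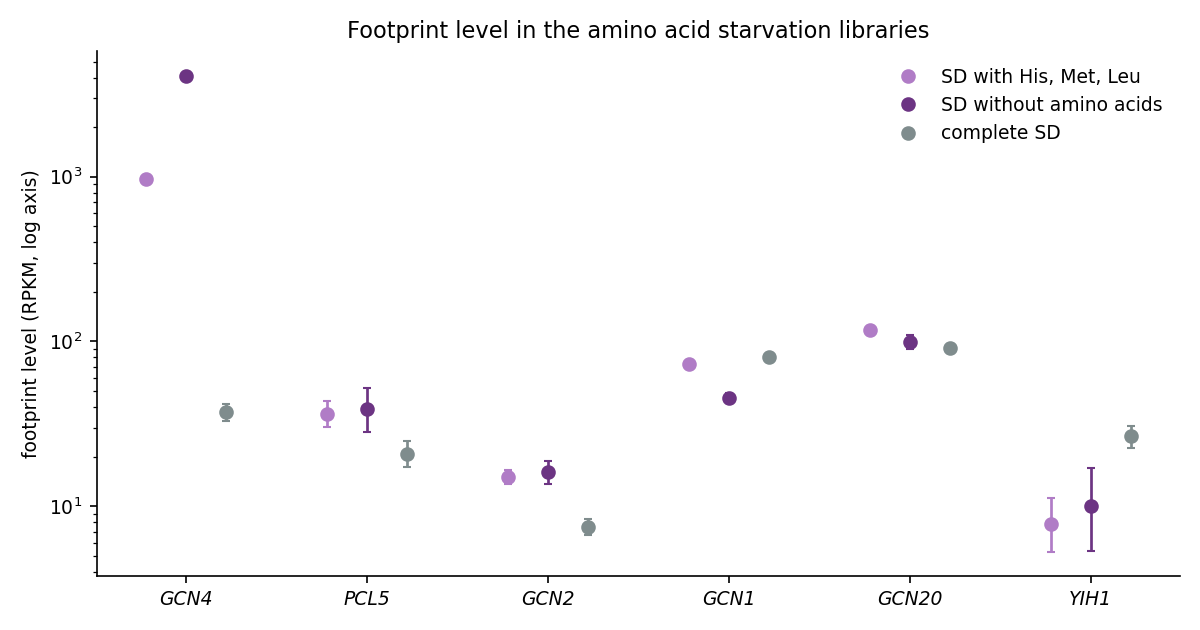
Footprint levels of the 6 genes in SD with histidine, methionine and leucine, SD without amino acids and complete SD, in RPKM on a log axis, with 1 library per point and 95% Poisson intervals as bars. GCN4 lies at 973 RPKM with the 3 amino acids, 4065 RPKM without any and 37.1 RPKM in complete SD, while YIH1 is lower in both starvation libraries than in complete SD.

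The other members differed far less. A 2-fold change on the log2(RPKM + 1) scale was passed by 2 of the 6 genes with the 3 amino acids and by 3 without any, beside 41% of all genes with the 3 amino acids and 62.6% without any. Between the starvation libraries GCN4 alone of the 5 genes above the filter of 10 RPKM passed it, beside 28% of all genes. GCN2 had 15.1 RPKM with the 3 amino acids and 16.1 RPKM without any, against 7.47 RPKM in complete SD. Its mean in each comparison with complete SD thus reached the filter only through the starved library. Of the other 5 genes, GCN4 and YIH1 passed 2-fold in both comparisons. The ratio of GCN2 over complete SD was 2.02 (1.75 to 2.33) with the 3 amino acids and 2.16 (1.77 to 2.62) without any, and the level with the 3 amino acids was 0.936 times (0.775 to 1.14) that without. GCN2 stood at the 2-fold line in both: its log2 difference was 0.92 with the 3 amino acids, and 1.00 with a pseudocount of 0.1, and 1.01 without any, and 0.58 with a pseudocount of 10. Of all genes 29.3% were at least 2-fold higher with the 3 amino acids and 48.9% without any. Centred on the median gene, the difference of GCN2 from complete SD was 0.41 with the 3 amino acids and -0.02 without any.

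GCN1 had 73.3 RPKM with the 3 amino acids and 45.4 RPKM without any, against 80.6 RPKM in complete SD. The ratio over complete SD was 0.910 (0.872 to 0.949) with them and 0.563 (0.520 to 0.609) without. GCN20, its partner, had 117 RPKM with the 3 amino acids and 99.1 RPKM without any, against 91.8 RPKM in complete SD, with ratios of 1.28 (1.19 to 1.37) with them and 1.08 (0.968 to 1.20) without. GCN1 thus stood lower relative to GCN20 in both starvation libraries than in complete SD: the ratio of GCN1 to GCN20 was 0.625 with the 3 amino acids and 0.458 without any, against 0.878 in complete SD.

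YIH1, the inhibitor, was the only member past a 2-fold decrease in either starvation library on the deposited scale. After centring it was at -2.16 with the 3 amino acids and -2.36 without any, and GCN1 passed 2-fold as well without any, at -1.85, but not with the 3, at -0.65. It had 7.82 RPKM with the 3 amino acids and 10 RPKM without any, against 26.5 RPKM in complete SD, and rested on 30 reads, 13 reads and 174 reads in these libraries. The ratio over complete SD was 0.295 (0.194 to 0.437) with the 3 amino acids and 0.378 (0.197 to 0.663) without any. Among all genes 11.7% with the 3 amino acids and 13.7% without any were at least 2-fold lower. At least 4-fold lower were 4.81% with the 3 amino acids and 7.96% without any. The 2 starvation libraries did not differ in YIH1 beyond counting error, with a ratio of 0.782 (0.396 to 1.63).

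PCL5, the cyclin that limits GCN4 protein, had 36.2 RPKM with the 3 amino acids and 38.8 RPKM without any, against 20.8 RPKM in complete SD. Its ratio over complete SD was 1.74 (1.34 to 2.26) with the 3 amino acids and 1.87 (1.29 to 2.66) without any, below 2-fold. On the log2 scale these were 0.77 with the 3 amino acids, beside 0.56 for the median of all genes, and 0.87 without any, beside 0.97. GCN4 was therefore 26.9 times as high per kilobase as PCL5 with the 3 amino acids and 105 times without any, against 1.79 times in complete SD. In the 20 YPD libraries this ratio ranged from 0.605 to 4.79.

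Of 24 GCN4 targets in amino acid synthesis, 23 had a line of their own and all of these passed the filter of a mean of 10 RPKM. With the 3 amino acids 18 were at least 2-fold higher than in complete SD and none at least 2-fold lower, and without any amino acids the counts were the same. The median log2 difference was 1.65 with the 3 amino acids, beside 0.56 over all genes, and 2.35 without any, beside 0.97 over all genes. Of all genes 29.3% were at least 2-fold higher with the 3 amino acids and 48.9% without any. After centring, 12 of the 23 targets were 2-fold higher and none lower with the 3 amino acids, where 13.8% of all genes were higher and 17.6% lower, and 14 were higher and 4 lower without any, where 20.7% were higher and 26.6% lower. The largest differences were in arginine synthesis. ARG3 (ornithine carbamoyltransferase) had 1015 RPKM with the 3 amino acids and 1048 RPKM without any, against 40.2 RPKM in complete SD. ARG1 (argininosuccinate synthase) had 3486 RPKM with the 3 amino acids, against 227 RPKM in complete SD, and ARG5,6 (early steps of the same pathway) had 899 RPKM without any, against 38.1 RPKM in complete SD.

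Some targets did not follow GCN4 between the starvation libraries. LYS9 (lysine synthesis) had 353 RPKM with the 3 amino acids and 85.6 RPKM without any, against 150 RPKM in complete SD. ILV6 (regulatory subunit of acetolactate synthase) had 366 RPKM with the 3 amino acids and 161 RPKM without any, against 274 RPKM in complete SD. These were lower without any amino acids than with the 3, whereas the catalytic subunit of the same enzyme ran the other way. This gene, ILV2, had 179 RPKM with the 3 amino acids and 778 RPKM without any, against 227 RPKM in complete SD. HOM3 (aspartate kinase) ran with ILV2 and had 195 RPKM with the 3 amino acids and 826 RPKM without any, against 94.9 RPKM in complete SD. TRP5 (tryptophan synthase), the lowest but for ILV2 with the 3 amino acids, had 375 RPKM there and 258 RPKM without any, against 324 RPKM in complete SD. With the 3 amino acids 2 targets were at least 2-fold higher and 4 at least 2-fold lower than without any, beside 7.11% and 20.9% of all genes, and the list's median of -0.35 equalled that of all genes.

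**Figure D2:**
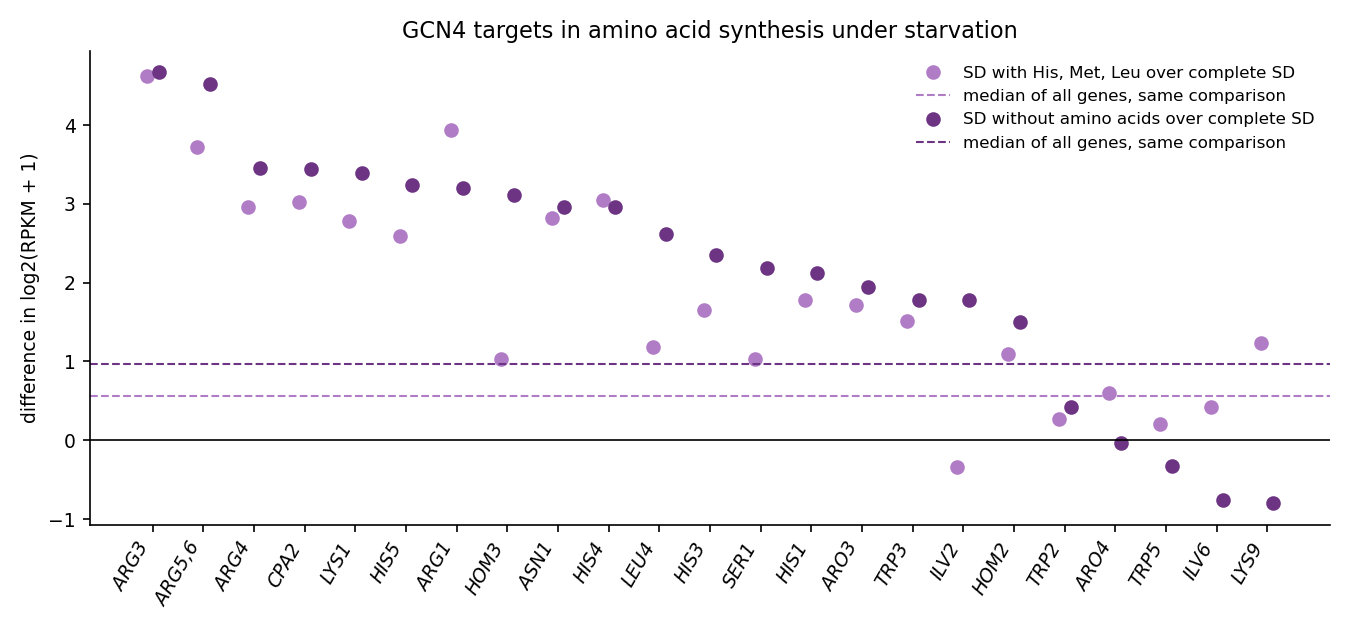
Difference in log2(RPKM + 1) from complete SD of 23 GCN4 targets, for SD with histidine, methionine and leucine and for SD without amino acids, with 1 library per condition. Dashed lines mark the median of all genes in the comparison of the same colour, 0.56 with the 3 amino acids and 0.97 without any. In each comparison 18 targets lie at or above 1, a 2-fold difference.

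The genes of eIF2, the substrate of GCN2, and of its exchange factor eIF2B leaned the other way. Of 8 subunits none was 2-fold higher in either starvation library, and 1 with the 3 amino acids and 2 without any were 2-fold lower, beside 11.7% and 13.7% of all genes. After centring, 5 were 2-fold lower with the 3 amino acids and all 8 without any, beside 17.6% and 26.6% of all genes. GCD11, the gamma subunit of eIF2, had 119 RPKM with the 3 amino acids and 60.01 RPKM without any, against 358 RPKM in complete SD. GCD1, of the catalytic part of eIF2B, had 37.8 RPKM with the 3 amino acids and 18.8 RPKM without any, against 58.8 RPKM in complete SD. GCN3, the eIF2B subunit that senses phosphorylated eIF2, was within 2-fold as deposited, at 44.7 RPKM with the 3 amino acids and 59.2 RPKM without any, against 60.7 RPKM in complete SD.

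Of 3 partners of GCN1 and YIH1, all 3 were 2-fold lower with the 3 amino acids and 2 without any, beside 11.7% and 13.7% of all genes, and after centring all 3 in both. RBG1, a GTPase, had 22.7 RPKM with the 3 amino acids and 13.9 RPKM without any, against 127 RPKM in complete SD. RBG2, its paralog, had 35.4 RPKM with the 3 amino acids and 16.0 RPKM without any, against 92.2 RPKM in complete SD. GIR2, which binds GCN1 and passed 2-fold without any amino acids only after centring, had 28.6 RPKM with the 3 amino acids and 40.3 RPKM without any, against 74.2 RPKM in complete SD.

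Among 9 genes of GCN4 turnover and activation, 3 with the 3 amino acids and 5 without any were 2-fold higher and none lower, beside 29.3% and 48.9% of all genes that were higher. PHO85, the kinase that PCL5 directs, had 133 RPKM with the 3 amino acids and 170 RPKM without any, against 51.9 RPKM in complete SD. The cyclin SSN8, a subunit of the Mediator kinase that also marks GCN4, had 20.8 RPKM with the 3 amino acids and 60.9 RPKM without any, against 5.67 RPKM in complete SD. The mean of the 2 libraries compared had to reach 10 RPKM, which SSN8 did only through the starved library. Between complete SD and unstressed YPD cells without drug, 7 of the 9 genes reached it, so that another gene of the list may have passed in the same way. CDC34, the ubiquitin-conjugating enzyme for GCN4, was likewise higher at 167 RPKM with the 3 amino acids and 141 RPKM without any, against 63.8 RPKM in complete SD. The list's median log2 difference of 0.72 with the 3 amino acids and 1.13 without any lay close to that of all genes. After centring 1 of the 9 was higher in each starvation library. This was SSN8, which the counts of 3 and 5 include as well, so that these counts rest in part on the filter.

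Peroxide and unstressed cells were compared with limma over 7 doses, with dose as a block. In the 8 peroxide libraries GCN4 ranged from 36.7 to 216 RPKM with a median of 82.7 RPKM, and in the 8 unstressed libraries from 31.7 to 140 RPKM with a median of 51.4 RPKM. The groups overlapped. The fitted difference was 0.47 on the log2 scale (SE 0.24, adjusted p = 0.0777) and -0.08 after centring (adjusted p = 0.774), so that no change of GCN4 passed the test. Of the 6 genes 4 were called, beside 85.8% of the 4352 genes tested, and after centring 4 as well, beside 82.3%. GCN2, whose mean reached the filter of 10 RPKM only through the peroxide libraries, is among these 6, and of the other 5 genes 3 were called as deposited and 4 after centring. Whether GCN4 was called rested on the lowest dose: without x1/64 the difference was 0.70 (adjusted p = 0.00358).

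Without drug GCN4 had 103.5 RPKM in peroxide and 31.7 RPKM in unstressed cells, a ratio of 3.26 (2.94 to 3.62). At x1/64 the order was reversed, with 65.0 RPKM in peroxide and 140 RPKM in unstressed cells. GCN4 had 70.8 RPKM in peroxide and 41.4 RPKM in unstressed cells at x1/16, 79.6 RPKM in peroxide and 56.8 RPKM in unstressed cells at x1/4, and 85.9 RPKM in peroxide and 46.0 RPKM in unstressed cells at x1. At x8 the levels met, with 36.7 RPKM in peroxide and 36.4 RPKM in unstressed cells. At x100 the 2 peroxide libraries had 122 and 216 RPKM and the 2 unstressed libraries 112 and 113 RPKM. GCN4 was thus higher in peroxide at 6 of 7 doses, at x8 with overlapping intervals. Flipping the signs of the 7 dose differences in an exact permutation test (two-sided) gave p = 0.203, where 0.0156 is the smallest p possible. At x100 alone the groups did not overlap, but the peroxide replicates differed 1.76-fold and the difference of 0.53 did not pass the test (adjusted p = 0.117). It was 0.93 (adjusted p = 9.50e-04) without peroxide replicate 1 and 0.12 (adjusted p = 0.367) without peroxide replicate 2, so that 1 library decided the call. Of the 5 genes tested at x100, 3 were called, beside 74.9% of 4101 genes.

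The unstressed GCN4 levels fell into separate ranges by primer set. The 3 libraries of set 2, at x1/64 and x100, had 112 to 140 RPKM and the 5 of set 1 had 31.7 to 56.8 RPKM. In unstressed cells x1/64 and x100 were profiled with set 2 only, so primer set and dose cannot be told apart there. In peroxide the ranges overlapped, 36.7 to 216 RPKM in the 5 libraries of set 2 and 70.8 to 103.5 RPKM in the 3 of set 1. At x1 and x8 peroxide had set 2 and unstressed cells set 1, so stress and primer set cannot be told apart in these pairs. With primer set as a term the peroxide difference of GCN4 was 0.48 (adjusted p = 0.139). PCL5 showed the same separation in unstressed cells, with 28.8 to 32.9 RPKM in set 2 and 12.8 to 23.5 RPKM in set 1.

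**Figure D3:**
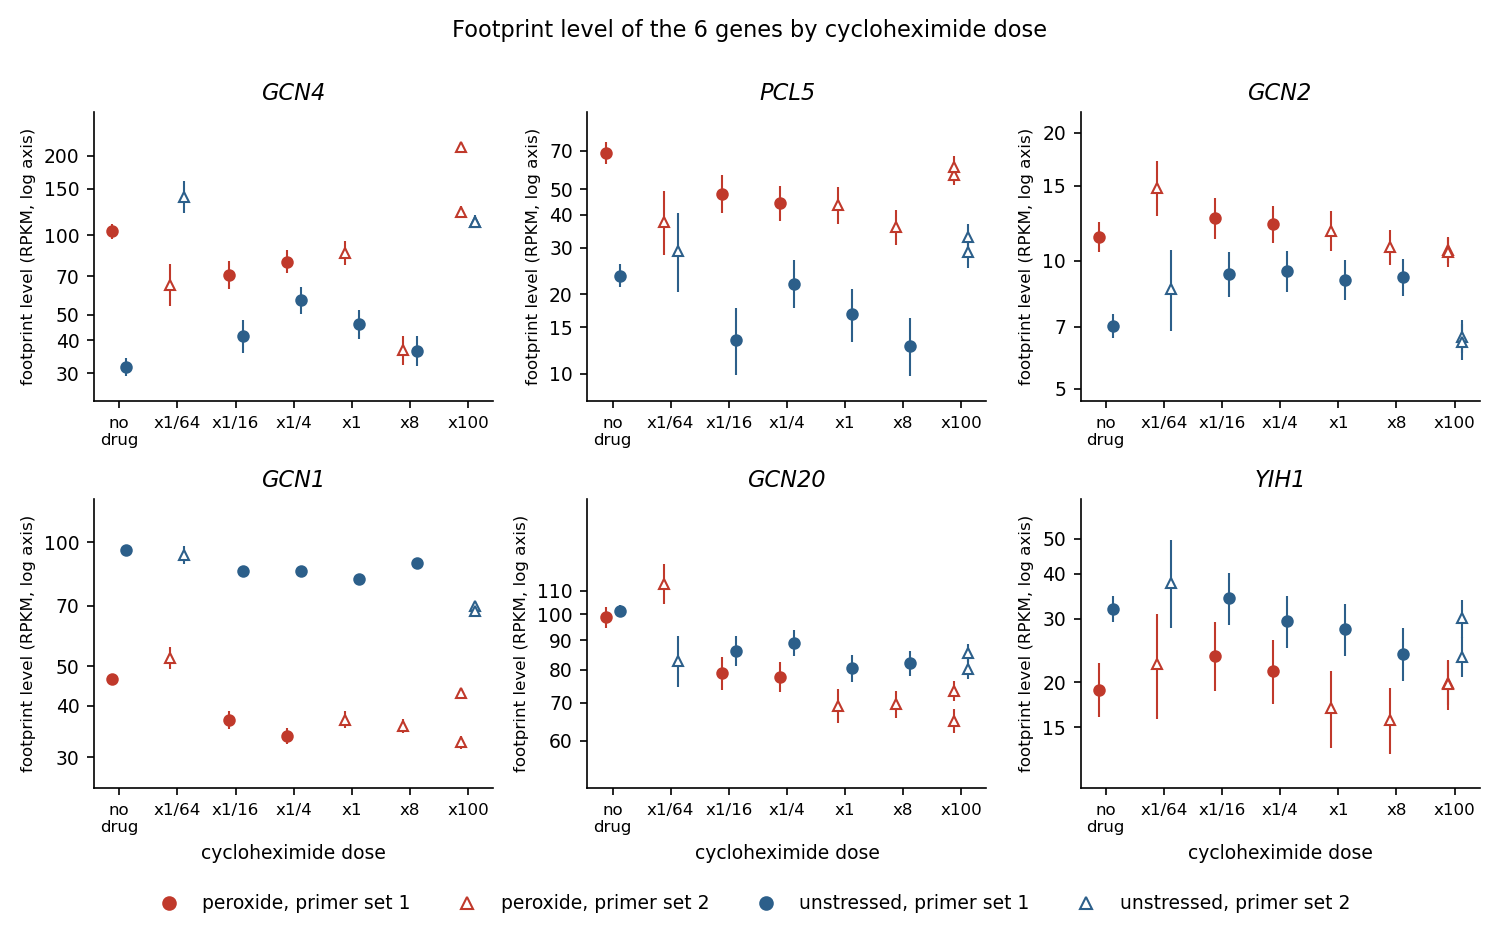
Footprint levels of the 6 genes in RPKM on log axes, by cycloheximide dose, for peroxide-treated and unstressed cells, with 1 library per point, 95% Poisson intervals as bars and the primer set as symbol. PCL5 and GCN2 are higher and GCN1 and YIH1 lower in peroxide at every dose, while GCN4 is lower in peroxide at x1/64.

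PCL5 rose in peroxide. It ranged from 35.9 to 68.5 RPKM with a median of 46.2 RPKM in peroxide, against 12.8 to 32.9 RPKM with a median of 22.7 RPKM in unstressed cells, without overlap. The fitted difference was 1.15 (SE 0.13, adjusted p = 3.92e-06) and 0.59 after centring (adjusted p = 0.00427). It was higher at 7 of 7 doses, with ratios from 1.29 at x1/64 to 3.58 at x1/16 and 2.91 without drug. At x100 it had 56.8 and 60.5 RPKM in peroxide and 32.9 and 28.8 RPKM in unstressed cells, a difference of 0.91 (adjusted p = 0.00103) that was 0.31 after centring (adjusted p = 0.0653).

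GCN2 had 10.5 to 14.8 RPKM with a median of 11.6 RPKM in peroxide, against 6.44 to 9.45 RPKM with a median of 8.80 RPKM in unstressed cells, again without overlap. Its difference of 0.48 (SE 0.08, adjusted p = 5.70e-05) was close to that of the median gene tested, 0.53, and after centring it was -0.07 (adjusted p = 0.228). Relative to the median gene it was lower in peroxide at 6 of 7 doses, by a small mean difference of -0.080 (SD 0.051), with p = 0.0312 in the exact sign-flip permutation test over doses.

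GCN1 fell in peroxide. It had 32.7 to 52.4 RPKM with a median of 37.0 RPKM, against 68.0 to 95.5 RPKM with a median of 85.0 RPKM in unstressed cells, and every peroxide library lay below every unstressed one. The difference was -1.06 (SE 0.09, adjusted p = 1.41e-07) and -1.61 after centring (adjusted p = 9.38e-10). At x100 it was -0.86 (adjusted p = 0.00354). The ratio of peroxide to unstressed cells lay between 0.397 at x1/4 and 0.563 at x1/64.

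GCN20 did not fall with its partner on the deposited scale. It had 65.0 to 113 RPKM with a median of 75.6 RPKM in peroxide, against 80.3 to 101 RPKM with a median of 84.1 RPKM in unstressed cells, and the groups overlapped. The difference was -0.11 (SE 0.09, adjusted p = 0.255) and -0.66 after centring (adjusted p = 2.02e-06), where GCN20 fell. Without the x1/64 dose the deposited values gave -0.19 (adjusted p = 0.0154). At x100 the difference was -0.26 (adjusted p = 0.0908), -0.35 without peroxide replicate 1 (adjusted p = 0.0428) and -0.85 after centring (adjusted p = 0.00187). The level of GCN1 relative to GCN20 was 0.435 to 0.585 in the 8 peroxide libraries, against 0.817 to 1.12 in the 8 unstressed ones, without overlap and whatever the centring, since a ratio within a library does not change with it. In heat shock it was 0.678 without drug and 0.673 at x1.

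**Figure D4:**
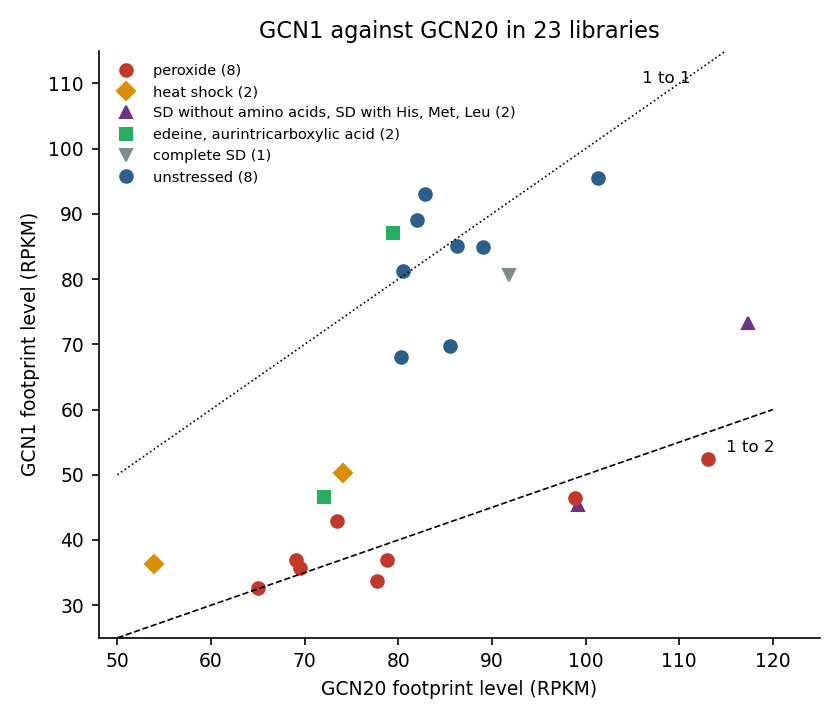
GCN1 against GCN20 footprint levels in RPKM in 23 libraries, by condition, with lines where GCN1 equals GCN20 (dotted, 1 to 1) and where GCN20 is at 2 times GCN1 (dashed, 1 to 2). The 8 peroxide libraries lie near the dashed line, between 0.435 and 0.585, and the 8 unstressed libraries near the dotted one, between 0.817 and 1.12.

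YIH1 fell as well. It had 15.7 to 23.6 RPKM with a median of 19.8 RPKM in peroxide, against 23.5 to 37.8 RPKM with a median of 29.8 RPKM in unstressed cells, and the ranges met only at 23.6 and 23.5 RPKM. The difference was -0.56 (SE 0.08, adjusted p = 1.73e-05) and -1.11 after centring (adjusted p = 1.96e-07). At x100 the difference of -0.41 passed narrowly (adjusted p = 0.0451) and was lost without unstressed replicate 2 (-0.23, adjusted p = 0.266), without peroxide replicate 1 (adjusted p = 0.0744) and without peroxide replicate 2 (adjusted p = 0.0831). The sign-flip permutation test gave the smallest p it can give, 0.0156, for PCL5, GCN2, GCN1 and YIH1, whose differences had 1 sign at all 7 doses as deposited. After centring the exact test gave this p for GCN1, GCN20 and YIH1, each lower in peroxide at all 7 doses, and p = 0.0469 for PCL5, higher at 6 of 7.

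Among the lists, the targets of GCN4 moved both ways in peroxide. Of 23, 4 rose and 11 fell, with a median of -0.23 beside 0.53 over all genes, of which 63% rose and 22.8% fell. LYS1, of lysine synthesis (1.50, adjusted p = 1.97e-07), and HIS5, of histidine synthesis (1.14, adjusted p = 1.55e-07), rose most, and ILV2 (-1.77, adjusted p = 1.98e-06) and HIS1, the first enzyme of histidine synthesis (-1.59, adjusted p = 1.56e-08), fell most. After centring 2 rose and 17 fell, beside 40.3% and 42% of all genes. Of the eIF2 and eIF2B subunits 7 of 8 fell, led by GCD11 (-1.51) and SUI3, the beta subunit of eIF2 (-1.04), and after centring all 8 fell. The 3 partners of GCN1 and YIH1 all fell, with -1.83 for RBG1 and -1.19 for RBG2.

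Of 8 tested genes of GCN4 turnover and activation, 7 rose and none fell, beside 63% and 22.8% of all genes, led by SSN8 (1.56) and PHO85 (1.29), with ADA2, a subunit of the SAGA coactivator, not called at -0.12 (adjusted p = 0.249). After centring 3 rose and 3 fell, beside 40.3% and 42% of all genes. At x100, where SSN8 was below the filter, 4 of 7 tested genes rose and none fell, beside 55.3% and 19.7% of all genes. SSN8 may thus have reached the filter over all doses only through the peroxide libraries. After centring at x100, 2 of the 7 rose and 3 fell, beside 28.4% and 38.6% of all genes. The rise of PHO85 and of its cyclin PCL5 thus stood beside a GCN4 level that did not pass the test.

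Heat shock was fitted over 18 YPD libraries with dose and stress as factors. Of the 5 members tested 4 were called, beside 69.9% of 4317 genes, and after centring 3, beside 73.1%. GCN4 had 32.1 RPKM in heat shock and 31.7 RPKM in unstressed cells without drug, and 17.8 RPKM in heat shock and 46.0 RPKM in unstressed cells at x1. It was thus level without drug, a ratio of 1.01 (0.797 to 1.27), and lower at x1, a ratio of 0.387 (0.269 to 0.544). The fitted difference of -1.06 (SE 0.43, adjusted p = 0.0394) was lost after centring (-0.80, adjusted p = 0.118), with a pseudocount of 10 (-0.85, adjusted p = 0.0560), without a filter (adjusted p = 0.0695), with primer set as a term (-1.20, adjusted p = 0.134) and without the heat shock library at x1 (-0.59, adjusted p = 0.417). Primer set 2 was used for the heat shock libraries and set 1 for the unstressed libraries at these doses.

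YIH1 fell most of the 5 genes tested under heat shock. It had 9.69 RPKM in heat shock, from 23 reads, and 31.9 RPKM in unstressed cells without drug, and 2.01 RPKM in heat shock, from 4 reads, and 28.1 RPKM in unstressed cells at x1. The difference was -2.37 (SE 0.27, adjusted p = 3.26e-06), and -2.12 after centring (adjusted p = 5.44e-06). GCN1 had 50.3 RPKM in heat shock and 95.5 RPKM in unstressed cells without drug, and 36.3 RPKM in heat shock and 81.2 RPKM in unstressed cells at x1. It fell by 1.02 (SE 0.16, adjusted p = 6.88e-05), while centring moved this to -0.77 (adjusted p = 1.19e-04). GCN20, nearer to its unstressed level, had 74.1 RPKM in heat shock and 101 RPKM in unstressed cells without drug, and 54.0 RPKM in heat shock and 80.5 RPKM in unstressed cells at x1. Its fall by 0.50 (adjusted p = 0.0131) was lost after centring (-0.25, adjusted p = 0.106), with primer set as a term (-0.38, adjusted p = 0.197), without the drug-free heat shock library (adjusted p = 0.0566) and without that at x1 (adjusted p = 0.0789).

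PCL5 had 34.3 RPKM in heat shock and 23.5 RPKM in unstressed cells without drug, and 29.4 RPKM in heat shock and 16.8 RPKM in unstressed cells at x1, higher in heat shock at both. The difference of 0.52 did not pass the test (SE 0.24, adjusted p = 0.0694), and did after centring (0.77, adjusted p = 0.0294) and without the x1/64 dose (0.57, adjusted p = 0.0176). With 17.8 RPKM of GCN4 and 29.4 RPKM of PCL5, heat shock at x1 gave the lowest ratio of GCN4 to PCL5 of all libraries, 0.605. GCN2 was below the filter, with 3.33 RPKM in heat shock and 7.02 RPKM in unstressed cells without drug, and 5.17 RPKM in heat shock and 9.03 RPKM in unstressed cells at x1, and without a filter its difference was -0.80 (adjusted p = 1.63e-04).

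**Figure D5:**
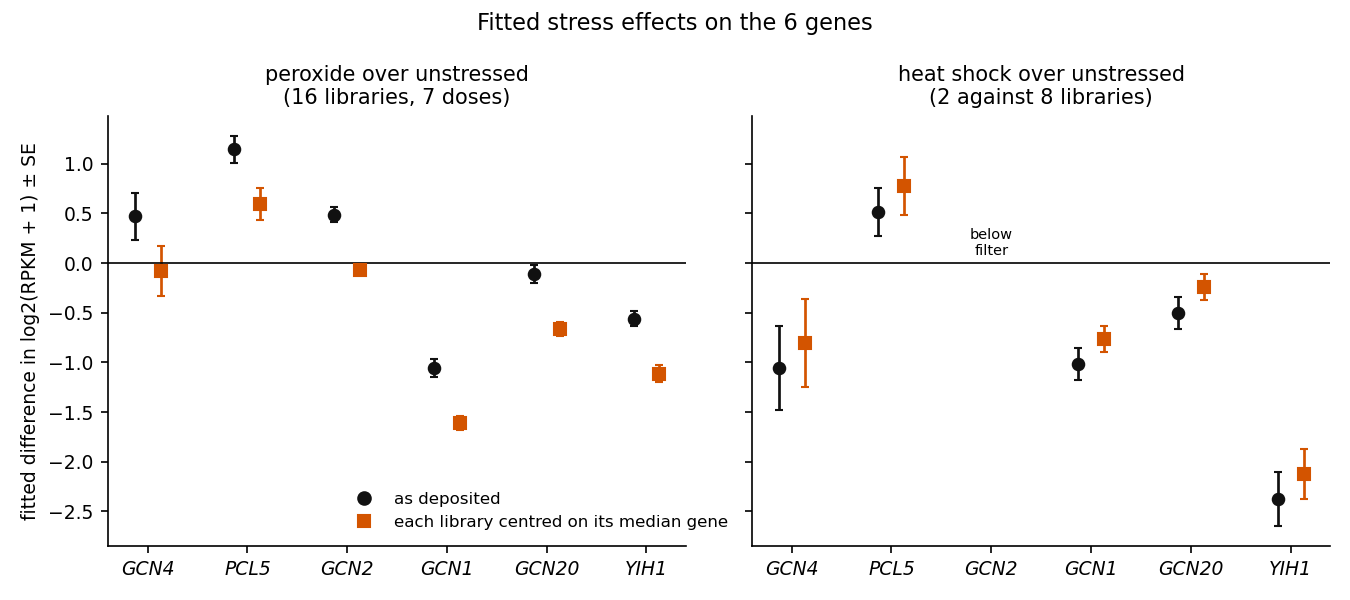
Fitted differences in log2(RPKM + 1) with standard errors for peroxide over unstressed cells and heat shock over unstressed cells, as deposited and after centring each library. Centring moves all 6 genes down in peroxide, GCN4 to -0.08 and GCN2 to -0.07, and the 5 tested genes up in heat shock. GCN2 was below the filter in the heat shock fit.

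Under heat shock 3 of 23 targets rose and 13 fell, with a median of -1.09 beside -0.28 over all genes, of which 26.7% rose and 43.2% fell. ARG3 (1.05) and LYS1 (1.02) rose most, and ARO4, an entry enzyme of aromatic amino acid synthesis (-4.22), and ILV6 (-1.99) fell most. All 8 subunits of eIF2 and eIF2B fell, GCD11 most with -3.25, and so did RBG1 (-3.56), RBG2 (-3.51) and GIR2 (-1.68). Of 8 genes of turnover and activation 2 rose, MBF1, a coactivator of GCN4 (2.60), and SSN8 (1.09), and none fell. After centring 4 of these 8 rose and none fell. Of the 23 targets 5 rose and 12 fell after centring, beside 35.4% and 37.6% of all genes.

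With cycloheximide against without, none of the 5 genes above the filter (GCN2 was below it) passed the test. Over 18 YPD libraries with stress as a term, 15 with drug and 3 without, GCN4 differed by 0.13 (SE 0.47, adjusted p = 0.943), and 0.278% of 4317 genes were called, with 493 genes at an unadjusted p under 0.05. The other tested members lay between -0.43 for YIH1 and -0.30 for GCN1 (adjusted p = 0.326 to 0.668). The sign for GCN4 turned when primer set was a term (-0.26) and when the unstressed drug-free library was left out (-0.48). The 7 drug-treated unstressed libraries had 36.4 to 140 RPKM of GCN4, against 31.7 RPKM without drug, and the 7 drug-treated peroxide libraries 36.7 to 216 RPKM, against 103.5 RPKM without drug. The peroxide effect with drug minus that without drug was -1.38 for GCN4 (SE 0.62, adjusted p = 0.423), and no member was called, where 0.023% of 4352 genes were.

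Over the 14 drug-treated peroxide and unstressed libraries a trend with the logarithm of the dose, fitted with stress and primer set as terms, was called in 23.8% of 4371 genes. Per the study's methods, x100 cells were filtered and resuspended before the drug was added, and x8 came from a stock in DMSO. Dose and handling therefore cannot be told apart at these doses. Of the 6 genes GCN2 alone was called, with -0.089 per 10-fold dose (SE 0.029, adjusted p = 0.0393), which was lost after centring (-0.022, adjusted p = 0.657), without the x100 dose (-0.065, adjusted p = 0.376) and without any 1 of the 4 libraries at x100 (adjusted p = 0.0530 to 0.0765). GCN4 had a trend of 0.068 (SE 0.13, adjusted p = 0.732), and -0.37 without the x100 dose (adjusted p = 0.0926). YIH1 had -0.10 (adjusted p = 0.0774) and -0.23 without the x100 dose (adjusted p = 0.0170), and GCN1 had -0.092 (adjusted p = 0.1003) and -0.12 without peroxide replicate 1 at x100 (adjusted p = 0.0352).

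The remaining conditions had 1 library each and are given as ratios. Complete SD over unstressed YPD cells without drug left all 6 genes within 2-fold, as for all but 6.28% of genes, with ratios between 0.829 for YIH1 and 1.17 (1.01 to 1.35) for GCN4. Lysis with edeine gave ratios between 0.784 for GCN20 and 1.21 (0.938 to 1.54) for GCN4, again with no member past 2-fold, where 1.6% of genes were. Lysis with aurintricarboxylic acid gave 43.8 RPKM of GCN4, 1.38 (1.18 to 1.61) times the 31.7 RPKM without it, and 41.7 RPKM of YIH1, 1.31 (1.11 to 1.54) times the 31.9 RPKM without it. GCN1 was the only member of the 6 past 2-fold there, beside 3.37% of all genes, with 46.6 RPKM, against 95.5 RPKM, a ratio of 0.488 (0.469 to 0.509), and 1.79% of genes were 2-fold lower. The methods describe this library as made from monosomes and polysomes pooled before digestion, and the part of that step in the GCN1 value was not tested.

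Across the 23 libraries GCN4 and PCL5 correlated with Pearson's r = 0.42 on the log2 scale, and r = 0.60 over the 21 libraries without the starved cultures, as a description of libraries that share controls, depth and primer sets. After centring, r over 23 libraries was 0.05. The r of GCN4 with GCN1 was -0.13, -0.27 after centring and -0.21 without the starved cultures. With GCN20 it was 0.42, -0.26 after centring and 0.09 without them, and with YIH1 it was -0.17, -0.39 after centring and 0.37 without them, so that both signs depended on the setting. The 5 genes most like GCN4 among 4383 were GGC1 (r = 0.91), a mitochondrial GTP carrier, GZF3 (0.90), ARG7 (0.90), CAN1 (0.90) and DAL80 (0.89). All 5 were higher in both starvation libraries than in complete SD, and none of them was among the 5 highest without these 2 libraries, which were DSS4 (0.79), PLP2 (0.79), MLC1 (0.78), LSM5 (0.78) and CCT2 (0.77). ARG7 (ornithine acetyltransferase) had 448 RPKM with the 3 amino acids and 1016 RPKM without any, against 61.2 RPKM in complete SD, and the arginine permease CAN1 had 408 RPKM with the 3 amino acids and 801 RPKM without any, against 50.7 RPKM in complete SD. DAL80, a repressor of nitrogen catabolic genes, had 38.8 RPKM with the 3 amino acids and 226 RPKM without any, and was listed at 0 in complete SD, with a median of 0 RPKM over the 23 libraries. Its mean passed the filter of 10 RPKM largely through these 2 starvation libraries, so its place among the 5 follows in part from the filter. The 5 most like PCL5 were SEM1 (0.87), PRE8 (0.86), TSA2 (0.85), RPT1 (0.85) and YNL208W (0.85), of which SEM1, PRE8 and RPT1 encode proteasome subunits and TSA2 a peroxiredoxin. Without the starved cultures none of these was among the 5 highest, led by RNR4 (0.89), a subunit of ribonucleotide reductase. GCN4 ranked 2133 among the genes by likeness to PCL5, and 1473 without the starved cultures. After centring, the 5 most like PCL5 over 23 libraries were SEM1 (0.81), RNR4 (0.78), RPN11 (0.77), DFG5 (0.77) and RNR2 (0.77). Those most like GCN4 were then DAL80 (0.86), CAN1 (0.86), MET22 (0.85), ARG7 (0.85) and ORT1 (0.85).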

How the data were processed

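The authors sequenced footprints on the Illumina platform, aligned them with Bowtie 0.12.7 to the S288C sequence from SGD, and deposited 1 RPKM value per gene and library. The genome release, the reads that enter the total and the handling of reads with several alignments are not given in the sources used here. The values imply a scaling length of the reading frame less about 100 nt. The positions from which reads were counted are not stated. Whether footprints on upstream reading frames enter a gene's level is therefore not known. The table has 5564 lines for 23 of 24 samples, and the sample of small subunits was not analysed here. The average occupancy profiles were not used.

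Depth was recovered by finding the number of reads that makes low values whole multiples of 1 read (94.4 to 99.1% within 0.1 read), as tested on simulated data. Groups came from the sample titles. Tests used limma 3.58.1 in R 4.3.3 on log2(RPKM + 1), kept genes whose mean reached 10 RPKM in the libraries of the fit, and were two-sided, with Benjamini-Hochberg adjustment over all genes of the fit and a threshold of 0.05. Fold changes on this scale understate those of low genes. Most libraries are single cultures at different doses, so the spread includes that between doses, and per the study's methods the x100 treatments were independent repeats. Single libraries were compared as ratios with exact intervals of the recovered reads. The genes and lists were chosen with earlier results of these data known. Named genes were the 6 genes, the 2 largest rises and falls of each list, and the 5 genes most correlated with GCN4 and with PCL5; GCN3, GIR2, ADA2, HOM3 and CDC34 were added after their values were seen. LYS20 shares a line with a paralog and was left out. Alternatives were pseudocounts of 0.1 and 10, no filter or 30 RPKM, centring, primer set or replicate as terms, and leaving out doses or libraries. Leaving out x1/64 in the heat shock, drug and interaction fits and the correlations after centring or without the starved cultures were chosen after seeing the data. Other steps used scipy 1.17.1, matplotlib 3.10.9, pandas 2.3.3 and numpy 2.4.6 under Python 3.11.15.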

Additional observations from a re-analysis of the deposited data

Results flagged for a closer look

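GCN20 in unstressed cells without drug, at 101 RPKM, lay above the other 7 unstressed libraries, the nearest of which had 89.1 RPKM, a gap of 0.555 of the range in log2(RPKM + 1). Of 12 groups of 8 libraries examined, it was the only one with such a library. Chance gives such a library in about 1 in 20 groups, so that 1 among 12 groups is not unusual. The libraries differ in dose, and this one is the deepest of the series.

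As deposited, GCN2 moved in opposite directions under the 2 stresses at both doses that they share. In peroxide it was higher than in unstressed cells by 0.63 on the log2 scale without drug and by 0.35 at x1, and in heat shock it was lower, by -0.89 without drug and -0.70 at x1. After centring on the median gene the signs did not oppose, with -0.096 without drug and -0.097 at x1 in peroxide, and -0.88 without drug and -0.23 at x1 in heat shock. The difference between the stresses was not tested.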

How the results depend on the processing

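With a filter of 30 RPKM, 2334 genes were called for peroxide over unstressed cells, 1923 at x100 alone, 1916 for heat shock, 7 for drug, 419 for the dose trend and none (0) for the drug-dependent peroxide effect. Without a filter drug called 29 genes and that effect 2, and with a pseudocount of 10 the effect called 0. Drug called 206 genes with primer set as a term and 26 without x1/64, and the drug-dependent effect called 2 after centring and 2 without x1/64. A 4-fold call left 1351 genes in SD lacking all amino acids and 558 with 3 added, each over complete SD, and 178 between the starvation libraries, where a pseudocount of 10 left 814.

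For GCN4, centring gave -0.080 in peroxide, -0.067 at x100, -0.80 in heat shock, 5.70 without amino acids and 4.16 with 3 added, over complete SD, and -1.54 between the starvation libraries. A pseudocount of 10 gave 6.43 without amino acids, 4.38 with 3 added and -0.85 in heat shock, where no filter gave -1.06 (adjusted p = 0.0695). Primer set as a term gave -1.20 in heat shock and -0.26 for drug. The dose trend without x100 was -0.37 for GCN4 and -0.17 for PCL5. Signs also turned after centring for GCN2 in peroxide (-0.067) and without amino acids (-0.022), and, in the drug-dependent effect, for GCN2 (0.032), GCN1 (0.16, and 0.019 with primer set) and GCN20 (0.11). The causes were not tested.

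Leaving out 1 library, or in peroxide 1 drug dose, GCN4 ranged from 0.39 to 0.70 in peroxide (0.30 without the drug-free dose, adjusted p = 0.223), from 0.12 to 0.93 at x100, from -1.53 to -0.59 in heat shock, from -0.48 to 0.40 for drug and from -0.019 to 0.059 in the dose trend, beside the -0.37 without x100, and drug called from 0 to 11 genes on leaving out 1 drug-free library, beside the 26 without x1/64. With the replicate block at x100, 3196 genes were called in place of 3073, GCN4 had 0.53 (adjusted p = 0.0632) and no call of a member changed; the labels do not say that the numbers pair samples, and same-numbered libraries deviated together with r = 0.43. Over all alternatives 311 values of tested members kept sign and side of the threshold, 22 lost and 10 gained the call and 12 changed sign.

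Low counts limit YIH1, with 4 to 30 reads in the heat shock and starvation libraries, and GCN2, which reached 10 RPKM in 10 of 23 libraries. Differences between single libraries have no replicate check, and all intervals leave out the spread between cultures.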
